A study of Homo sapiens with 6 samples.

Results

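The mRNAs of 10 enzymes that build the glycosaminoglycan linker and heparan sulfate were followed in U937, an established human myeloid leukaemia line whose cells resemble immature monocytes. The 10 genes were picked by name out of the 58735 genes of the deposited table: XYLT1, XYLT2, B4GALT7, B3GALT6, B3GAT3, EXT1, EXT2, NDST1, NDST2 and HS3ST2. B3GALT6 and HS3ST2 were picked for their rise in these same libraries, so their values are given as a description, with no test. RNA was sequenced from 3 libraries labelled wild type and 3 labelled shENO1, read here as U937 cells that carry a short hairpin RNA against ENO1 (alpha-enolase, a glycolytic enzyme). Both groups are the same line with no other agent in the labels. The comparison asks what differs between cells with the hairpin and wild-type cells. Because the controls are labelled wild type and no control hairpin is named, effects of the vector and of ENO1 loss cannot be told apart. The labels name neither clones or pools nor separate cultures behind the replicates. The tests therefore weigh differences against the scatter of these libraries, which may be technical.

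Glycosaminoglycans are long, often sulfated sugar chains carried by proteoglycans. Heparan sulfate and chondroitin sulfate start from the same linker, xylose, galactose, galactose and glucuronic acid, built in this order on a serine of the core protein. The next sugar decides the chain type, and sulfotransferases then write the sites at which heparan sulfate binds growth factors, chemokines and proteases. In myeloid cells the main carrier is serglycin, a proteoglycan of secretory granules.

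The libraries held 14216739 to 17499636 reads in genes, recovered from the FPKM values (fragments per kilobase, a level corrected for gene length and sequencing depth). ENO1 fell from 544 ± 17.4 to 95.1 ± 14.4 FPKM (SD, n = 3), 17.5% of the wild-type level, and the groups did not overlap (limma, adjusted p = 0.00129). In such bulk RNA, fewer cells with an mRNA and less of it per cell cannot be told apart. Of 10 myeloid markers 9 reached 1 FPKM in at least 1 library; MPO, the gene of myeloperoxidase, stayed at or below 0.357 FPKM. The summed level of the 10 was 563 to 677 FPKM in wild-type and 728 to 1102 FPKM in shENO1 libraries, without overlap. Its largest part was LYZ, at 384 ± 66.7 and 634 ± 192 FPKM. LYZ did not pass the main test (limma adjusted p = 0.107) and passed by limma-voom (adjusted p = 0.0331). The ratio of means was 0.88 for PTPRC, 0.89 for CD33, 0.93 for CD4, 1.03 for SPI1 and 1.09 for ITGAM, and none of these passed. MPO had a ratio of 0.30, on 2 to 19 reads per library. The monocyte receptor genes CSF1R (ratio of means 2.42, limma adjusted p = 0.0245) and FCGR1A (1.76, adjusted p = 0.0322) were higher in shENO1 cells, and CD14, below the filter of a mean of 1 FPKM, had a ratio of 2.34. Of 12 markers of other cell types 5 were listed at 0 in all libraries, among them the T-cell genes CD3E and CD3D, and 3 reached 1 FPKM, among them COL1A1 and PECAM1. The summed level of the 12 was 17.6 to 20.4 FPKM in wild-type and 22.8 to 24.0 FPKM in shENO1 libraries, most of it PECAM1, which monocytes also express (adjusted p = 0.0409). The part of either marker list in the results below was not tested. Wild-type replicate 3 and shENO1 replicate 3 stood apart from the rest, at -32.2 and 34.7 on principal component 2 (27.3% of the variance), and wild-type replicate 3 was also nearest to the shENO1 libraries on component 1 (-9.79, against -34.2 and -31.8). The share of reads on the mitochondrial chromosome was 3.38%, 3.49% and 5.19% in wild-type replicates 1 to 3, and 6.65%, 7.42% and 5.72% in shENO1 replicates 1 to 3.

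The stretches just upstream of B3GALT6 and HS3ST2 are shown because these genes had the largest differences, and that of B4GALT7 because its enzyme acts in the step before B3GALT6. They are from RefSeq (GRCh38.p14), 5′ to 3′ on the coding strand, and hold the bases before the RefSeq start that lie outside every gene model of the deposited table. Capitals mark CACGTG, TGACGTCA and GGGCGG, searched on both strands (GGGCGG reads CCGCCC on the other strand), in letters chosen after these sequences had been seen. No base belonged to more than 1 of the motifs.
B3GALT6 (chr1:1232032-1232225, plus strand): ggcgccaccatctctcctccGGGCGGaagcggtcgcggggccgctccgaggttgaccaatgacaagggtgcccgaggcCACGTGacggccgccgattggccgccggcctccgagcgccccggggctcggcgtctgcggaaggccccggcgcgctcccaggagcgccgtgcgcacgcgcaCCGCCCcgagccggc
HS3ST2 (chr16:22813912-22814161, plus strand): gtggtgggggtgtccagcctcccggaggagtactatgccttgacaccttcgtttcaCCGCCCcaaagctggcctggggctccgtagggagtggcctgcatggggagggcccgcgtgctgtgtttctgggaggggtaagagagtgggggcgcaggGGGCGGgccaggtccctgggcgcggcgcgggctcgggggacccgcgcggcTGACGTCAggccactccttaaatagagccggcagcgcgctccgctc
B4GALT7 (chr5:177599882-177600099, plus strand): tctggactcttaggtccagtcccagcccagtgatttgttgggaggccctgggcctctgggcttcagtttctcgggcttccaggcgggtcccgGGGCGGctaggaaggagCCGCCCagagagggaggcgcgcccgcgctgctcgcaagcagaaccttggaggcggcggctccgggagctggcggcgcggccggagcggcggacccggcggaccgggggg
In the 250 bases before the RefSeq start, available for 9 of the 10 genes, CACGTG was found at B3GALT6 alone of the 9, TGACGTCA at HS3ST2 and B3GAT3, and GGGCGG at 8 genes, all but EXT2. Of 35116 windows of the same length over all genes, 6.34% held CACGTG, 1.65% TGACGTCA and 42.6% GGGCGG. The window of NDST1 lies inside its gene model, since the RefSeq start is 11961 bases from the start in the deposited table. The remaining gene is EXT1.

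Among the linker enzymes, B3GALT6 stood at several times its wild-type level in every shENO1 library, while the enzymes of the steps before and after it differed far less. B3GALT6 encodes the transferase that adds the second galactose. It is a gene of a single exon (ENSG00000176022, chromosome 1, 1232226 to 1235041, plus strand, GRCh38). It was measured at 2.87, 3.20 and 5.23 FPKM in wild-type replicates 1 to 3 and at 23.9, 18.2 and 16.3 FPKM in shENO1 replicates 1 to 3. In the control group replicate 3 was the highest, and the lowest shENO1 library was still 3.12 times as high. The means were 3.77 ± 1.28 and 19.4 ± 3.94 FPKM (SD, n = 3), a ratio of 5.16, on 122 to 204 reads per wild-type and 774 to 1046 reads per shENO1 library. The log2 fold change on log2(FPKM + 1) was 2.12 (SE 0.22), rank 2 of 12809 genes by size among increases. It was 2.32 without wild-type replicate 3 and 2.44 without both replicates 3. It was 1.48 with 5 FPKM added in place of 1, and the log2 fold change on recovered reads (limma-voom), where no FPKM is added, was 2.42.

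**Figure D1:**
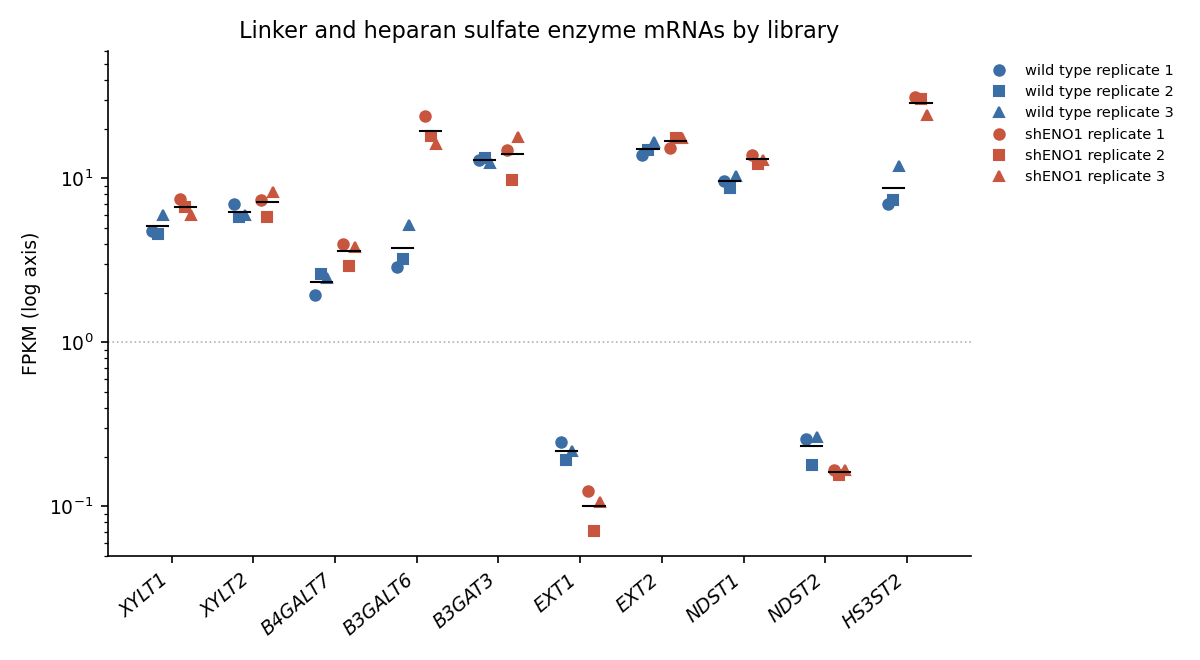
FPKM of the 10 genes (log axis) in each of the 6 libraries; colours mark the group, symbols the replicate, black bars the group means, and the dotted line 1 FPKM. B3GALT6 (2.87 to 5.23 against 16.3 to 23.9 FPKM) and HS3ST2 (6.97 to 11.9 against 24.3 to 31.6 FPKM) have the widest gaps between groups, and EXT1 and NDST2 lie at or below 0.264 FPKM in all libraries.

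XYLT1 and XYLT2 encode the xylosyltransferases that start the linker on the core protein. XYLT1 (chromosome 16, 17101769 to 17470881, minus strand) was measured at 4.80, 4.56 and 5.96 FPKM in wild-type and 7.45, 6.66 and 6.01 FPKM in shENO1 libraries. The groups did not overlap, but the lowest shENO1 value was only 1.01 times the highest wild-type value, and XYLT1 did not pass the test (log2 fold change 0.34, SE 0.12, limma adjusted p = 0.115). Without both replicates 3 it passed (0.50, adjusted p = 0.0232). XYLT2 (chromosome 17, 50346092 to 50363138, plus strand) was measured at 6.97, 5.78 and 5.99 FPKM in wild-type and 7.35, 5.83 and 8.30 FPKM in shENO1 libraries. These groups overlapped (log2 fold change 0.16, SE 0.14, adjusted p = 0.461).

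B4GALT7, whose enzyme adds the first galactose (chromosome 5, 177600100 to 177610347, plus strand), was measured at 1.95, 2.60 and 2.48 FPKM in wild-type and 3.99, 2.94 and 3.84 FPKM in shENO1 libraries. All shENO1 values lay above all wild-type values, with a ratio of means of 1.53, on 145 to 319 reads per library. It missed the threshold (log2 fold change 0.46, SE 0.14, limma adjusted p = 0.0743). It passed by limma-voom on recovered reads (0.63, adjusted p = 0.0388). It also passed with libraries scaled on the FPKM sum of nuclear genes (0.54, limma adjusted p = 0.0426). It did not pass with libraries scaled on the median ratio of nuclear genes to their mean over libraries (0.45, limma adjusted p = 0.0744). B3GAT3, whose enzyme completes the linker with glucuronic acid (chromosome 11, 62615296 to 62622175, minus strand), was measured at 13.0, 13.3 and 12.3 FPKM in wild-type libraries. Its shENO1 values spread from 9.73 FPKM in replicate 2 through 14.8 in replicate 1 to 17.8 in replicate 3, on both sides of the wild-type range. The log2 fold change was 0.09 (SE 0.20, adjusted p = 0.808), and it was -0.09 without shENO1 replicate 3 and 0.31 without shENO1 replicate 2. These libraries also had the extreme trends with gene length across 10032 protein-coding genes (Spearman rho 0.254 in replicate 2 and -0.375 in replicate 3), and B3GAT3 has the shortest gene model of the 10, 2428 bases. The part of this trend was not tested.

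No chain-forming enzyme passed a test. EXT1 and EXT2 act together as the copolymerase that extends heparan sulfate. EXT2 (chromosome 11, 44095549 to 44245429, plus strand) was measured at 13.9, 14.9 and 16.7 FPKM in wild-type and 15.4, 17.6 and 17.7 FPKM in shENO1 libraries, with overlap (log2 fold change 0.15, SE 0.10, limma adjusted p = 0.368). EXT1 (chromosome 8, 117794490 to 118111853, minus strand) was measured at 0.247, 0.192 and 0.217 FPKM in wild-type and 0.124, 0.0711 and 0.107 FPKM in shENO1 libraries. It lay below the filter of a mean of 1 FPKM and was left out of the main test. All shENO1 values were below all wild-type values, but they rest on 9 to 16 reads per library, against 25 to 31 in wild type. A test added for genes with a mean of at least 10 reads gave a log2 fold change of -1.10 (SE 0.37, limma-voom adjusted p = 0.0726), beside a background of 10.1% of genes called higher and 6.89% lower in that test. At this depth no difference in EXT1 was detectable by the test.

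Of the modifying enzymes, HS3ST2 is one of the sulfotransferases that place the rare 3-O-sulfate on heparan sulfate. HS3ST2 (ENSG00000122254, chromosome 16, 22814177 to 22916338, plus strand) was measured at 6.97, 7.34 and 11.9 FPKM in wild-type replicates 1 to 3 and at 31.6, 30.5 and 24.3 FPKM in shENO1 replicates 1 to 3. Again replicate 3 was the highest control and shENO1 replicate 3 the lowest knockdown library, and the gap between them was 2.05-fold. The means were 8.72 ± 2.72 and 28.8 ± 3.90 FPKM (SD, n = 3), a ratio of 3.30, on 274 to 428 and 1069 to 1279 reads per library. The log2 fold change was 1.64 (SE 0.21), 1.86 without wild-type replicate 3, 1.97 without both replicates 3 and 1.31 with 5 FPKM added. The library order matches that of the mitochondrial read share in setting wild-type replicate 3 highest and shENO1 replicate 3 lowest of their groups; the part of that share was not tested. Of the 7 HS3ST genes, HS3ST2 made up at least 99.2% of the family's summed FPKM in each library, and no other exceeded 0.0467 FPKM or 3 reads in any library.

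NDST1 was the 1 gene to pass among the 6 tested genes that were not picked for their rise. NDST1 and NDST2 encode bifunctional enzymes that replace acetyl groups by sulfate on the nascent chain, the step that opens it to further modification. NDST1 (chromosome 5, 150485818 to 150558211, plus strand) was measured at 9.64, 8.78 and 10.4 FPKM in wild-type and 13.8, 12.3 and 13.0 FPKM in shENO1 libraries. The groups did not overlap, and the means were 9.59 ± 0.787 and 13.0 ± 0.763 FPKM (SD, n = 3; log2 fold change 0.41, SE 0.09, limma adjusted p = 0.0363). The call held without wild-type replicate 3 (adjusted p = 0.0409) and without both replicates 3 (0.46, adjusted p = 0.0291), and was lost when any other single library was left out, with an adjusted p of up to 0.149 and a log2 fold change of at least 0.35. It was also lost with no filter on FPKM (adjusted p = 0.0715). NDST2 (chromosome 10, 73801911 to 73811798, minus strand) was below the filter, at 0.256, 0.179 and 0.264 FPKM in wild-type and 0.166, 0.155 and 0.166 FPKM in shENO1 libraries, on 11 to 18 reads per library. Its log2 fold change on recovered reads was -0.47 (SE 0.39, limma-voom adjusted p = 0.453), so no difference was detectable at this depth.

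Of the 6 tested genes not picked for their rise, 1 was higher and 0 were lower. The background by the same limma test was 7.86% of 12809 genes higher and 6.46% lower. At an unadjusted p under 0.05, 3 of the 6 were higher and 0 lower, beside 16.3% and 15.4% of all tested genes. By limma-voom on recovered reads 2 of the 6 were higher and 0 lower, against 10.9% and 7.25%. With scaling on the FPKM sum of nuclear genes 2 were higher and 0 lower, against 10.9% and 3.91%. With scaling on the median ratio of nuclear genes 1 was higher and 0 lower, beside 992 and 865 of 12809 genes. In 3 of the 6 (XYLT1, B4GALT7 and NDST1) all shENO1 libraries lay above all wild-type libraries, which was so for 19.6% of all tested genes. A gap in either direction was seen for 37.5%. In EXT1 and NDST2, below the filter and outside this count, all shENO1 libraries lay below all wild-type libraries, on at most 31 reads. Such a gap downward was seen for 17.9% of all tested genes. The fold changes of the 8 genes above the filter kept their sign under each setting tried, except that of B3GAT3.

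**Figure D2:**
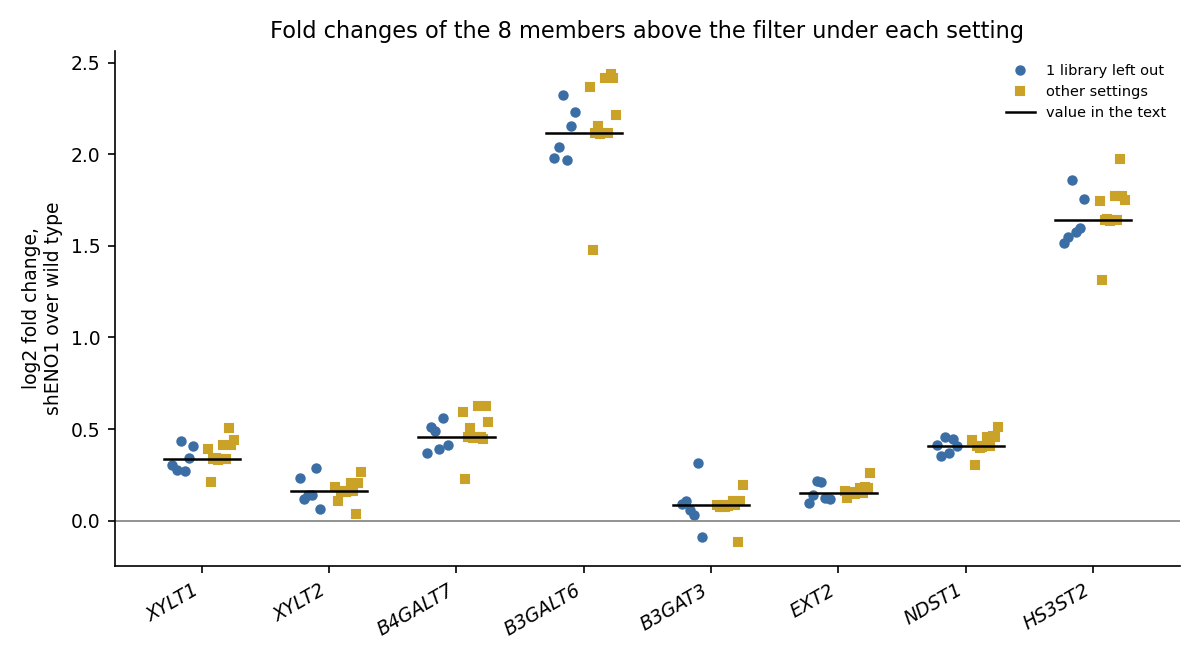
Log2 fold change of shENO1 over wild type for the 8 genes above the filter: black lines give the values of the text, blue points the values with 1 library left out, and yellow squares the other settings. B3GALT6 ranges from 1.48 to 2.44 and HS3ST2 from 1.31 to 1.97, and B3GAT3 crosses 0, from -0.12 to 0.31.

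FPKM is scaled by the length of the gene model, 2428 bases for B3GAT3 and 11004 for XYLT1, so levels can be set side by side across genes only roughly. The lengths of the transcripts expressed were not measured. Trends with gene length also differed between libraries (Spearman rho 0.254 in shENO1 replicate 2 and -0.375 in shENO1 replicate 3). In wild-type cells EXT2 was the highest of the 10, at 15.1 ± 1.42 FPKM, followed by B3GAT3, and the ranges of both over libraries stood clear of each other and of the next gene. NDST1 and HS3ST2 overlapped, as did XYLT2 with XYLT1, XYLT1 with B3GALT6, and NDST2 with EXT1. B3GALT6 was rank 7 and B4GALT7 rank 8. In shENO1 cells HS3ST2 was the highest, clear of the rest. B3GALT6 came next, at a level whose range overlapped that of EXT2. B4GALT7 remained rank 8, at 3.59 ± 0.57 FPKM, with NDST2 and EXT1 below it.

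The balance within 3 pairs of related enzymes was compared as a share of the pair's FPKM in each library, where scaling between libraries cancels. A trend with gene length does not cancel, since the gene models differ in length. They span 11004 bases for XYLT1 and 5472 for XYLT2, 8325 for EXT1 and 5286 for EXT2, and 9529 for NDST1 and 4654 for NDST2. The part of this trend in the shares was not tested. XYLT2 made up 59.2%, 55.9% and 50.1% of XYLT1 plus XYLT2 in wild-type and 49.7%, 46.7% and 58.0% in shENO1 libraries. Both genes were thus at similar levels and the groups overlapped (exact two-sided permutation p = 0.4, adjusted 0.4). The mean difference of -3.64 points ranged from -6.92 to -1.26 with 1 library left out. EXT2 made up 98.3%, 98.7% and 98.7% of EXT1 plus EXT2 in wild-type and 99.2%, 99.6% and 99.4% in shENO1 libraries. NDST2 made up 2.59%, 1.99% and 2.48% of NDST1 plus NDST2 in wild-type and 1.18%, 1.25% and 1.26% in shENO1 libraries. For EXT and NDST the groups did not overlap (exact p = 0.1 each, the smallest that 3 against 3 libraries allow, adjusted 0.15), and the smaller partner of each pair rests on 9 to 31 reads per library.

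Around these enzymes, 7 lists of the wider pathway held 101 genes, the 10 included. Of the 61 that were tested and not picked for their rise, 13 were higher and 0 lower by limma, beside 7.86% and 6.46% of all tested genes. At an unadjusted p under 0.05 the counts were 22 and 2, beside 16.3% and 15.4%. Their median log2 fold change was 0.16, beside -0.02 over all tested genes. The lists were chosen with earlier results of these libraries known. Scaling on the FPKM sum of nuclear genes moved the median of all tested genes from -0.02 to 0.08. The share of increases among all calls moved from 54.9% to 73.6%. With this scaling, 17 of the 61 were higher and 0 lower, and their median was 0.26. Scaling on the median ratio of nuclear genes left the median of all tested genes at -0.02. The share of increases was then 53.4%, and all 13 calls held. With limma-voom 18 were higher, all 13 among them, and 1 gene, the core protein gene HSPG2, was lower. All 13 kept their direction under each setting, but the calls depended on single libraries: 3 of the 13 were left without wild-type replicate 1, 5 without wild-type replicate 2, 10 without wild-type replicate 3, and 4, 6 and 9 without shENO1 replicates 1, 2 and 3. HS6ST1, CHPF2 and CHST14 passed whichever library was left out.

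In the linker list (median log2 fold change 0.33), 1 of 5 tested genes not picked for their rise was higher, beside 7.86% of all tested genes. This was FAM20B, the kinase that phosphorylates the linker xylose. It was measured at 11.4, 11.3 and 12.4 FPKM in wild-type and 14.3, 15.2 and 15.4 FPKM in shENO1 libraries, without overlap (log2 fold change 0.33, SE 0.08, limma adjusted p = 0.0453). Its call was lost without any 1 of the 6 libraries, with an adjusted p of 0.0522 to 0.18, and with no filter on FPKM or no variance trend. PXYLP1, the phosphatase that removes this phosphate, was below the filter. In the list of chain enzymes (median 0.15), 0 of 3 tested genes passed by limma, by limma-voom or at an unadjusted p under 0.05. By limma, 14.3% of all tested genes passed in either direction. EXTL3, whose enzyme commits the linker to heparan sulfate, was at 4.36 ± 0.611 and 4.94 ± 0.396 FPKM (limma adjusted p = 0.412).

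In the heparan sulfate modification list (median 0.41), 2 of 5 tested genes not picked for their rise were higher, beside 7.86% of all tested genes. These were NDST1 and HS6ST1. HS6ST1, a 6-O-sulfotransferase, rose from 19.7, 18.3 and 21.0 FPKM to 42.0, 37.7 and 44.9 FPKM. The groups stood far apart, with a ratio of means of 2.11 (log2 fold change 1.04, SE 0.10, limma adjusted p = 0.0056), and the adjusted p stayed at or below 0.0362 with any 1 library left out. HS6ST1 made up at least 98.0% of the FPKM of its family of 3 in each library. Of the 20 genes of this list 14 were below the filter, and 5 of them were listed at 0 in all libraries. For NDST, HS6ST and HS3ST, 1 gene each thus held nearly all of the family's mRNA.

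Chondroitin sulfate shares the linker. In its list, with dermatan sulfate, 3 of 11 tested genes were higher and 0 lower, beside 7.86% and 6.46% of all tested genes. The median log2 fold change was 0.21. By limma-voom the counts were 4 and 0, beside 10.9% and 7.25%. At an unadjusted p under 0.05 the counts were 5 and 0, beside 16.3% and 15.4% of all tested genes. CHST14, the dermatan 4-O-sulfotransferase, rose from 4.77 ± 0.239 to 10.3 ± 1.46 FPKM (SD, n = 3; log2 fold change 0.96, limma adjusted p = 0.00695). CHST13, a chondroitin 4-O-sulfotransferase, was at 3.78, 4.54 and 8.47 FPKM in wild-type and 15.5, 14.1 and 10.3 FPKM in shENO1 libraries (1.16, adjusted p = 0.0379), with wild-type replicate 3 and shENO1 replicate 3 nearest to each other as in HS3ST2. Its call was lost without wild-type replicate 1 or 2 or shENO1 replicate 1 or 2 (adjusted p up to 0.125), and with no filter on FPKM (0.109). CHPF2, a chondroitin polymerising factor, rose from 6.53 ± 0.411 to 10.8 ± 0.401 FPKM (0.65, adjusted p = 0.00841). The most abundant genes of the list, the initiating transferase CSGALNACT2 at 57.4 ± 2.26 and 52.4 ± 4.03 FPKM and the synthase CHSY1 at 49.9 ± 3.05 and 60.3 ± 4.71 FPKM, did not pass (adjusted p = 0.402 and 0.133), though CHSY1 did without both replicates 3 (adjusted p = 0.0325).

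In the list of precursor supply, 2 of 11 tested genes were higher, beside 7.86% of all tested genes. The median log2 fold change of the list was -0.01, and 0.10 with scaling on the FPKM sum of nuclear genes. UXS1, which makes UDP-xylose, rose from 10.4 ± 0.321 to 14.6 ± 1.70 FPKM (SD, n = 3; log2 fold change 0.45, limma adjusted p = 0.0351) and SLC35B4, a carrier of UDP-xylose into the secretory pathway, from 3.71 ± 0.356 to 5.67 ± 0.741 FPKM (0.50, adjusted p = 0.0366). The call of UXS1 was lost without any 1 library (adjusted p of 0.0504 to 0.133), and that of SLC35B4 without wild-type or shENO1 replicates 1 or 2 (adjusted p up to 0.134). With no filter on FPKM both calls were lost as well (adjusted p = 0.0733 and 0.0938). PAPSS1, a synthase of the sulfate donor, was at 32.8 ± 1.13 and 32.6 ± 4.27 FPKM and IMPAD1, a phosphatase that clears a by-product of sulfation, at 28.0 ± 3.93 and 25.3 ± 2.75 FPKM (adjusted p = 0.948 and 0.533).

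Among core proteins 1 of 12 tested genes was higher, beside 7.86% of all tested genes. The median log2 fold change of the 12 was 0.00075. SRGN, the serglycin gene, was measured at 812, 854 and 868 FPKM in wild-type and 1165, 1286 and 1548 FPKM in shENO1 libraries, without overlap (log2 fold change 0.65, SE 0.17, limma adjusted p = 0.047). Its call was lost without any 1 library (adjusted p of 0.0536 to 0.162) and after quantile normalisation (0.47, adjusted p = 0.0525), and with no filter on FPKM the adjusted p was 0.438. The next most abundant core protein gene, APLP2, was at 94.5 ± 3.21 and 111 ± 7.30 FPKM (limma adjusted p = 0.17). It passed with scaling on the FPKM sum of nuclear genes (adjusted p = 0.042) and not on their median ratio (adjusted p = 0.154). HSPG2, the gene of perlecan, was at 1.71 ± 0.374 and 0.931 ± 0.118 FPKM, without overlap. It did not pass the main test (log2 fold change -0.48, SE 0.16, adjusted p = 0.0873) and was lower by limma-voom over genes with a mean of at least 10 reads (-0.85, adjusted p = 0.0153). SDC4 was the single syndecan above 0: SDC1, SDC2 and SDC3 were listed at 0 in all libraries.

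Among lysosomal breakdown enzymes 4 of 14 tested genes were higher, beside 7.86% of all tested genes (median log2 fold change of the list 0.26). NAGLU, which removes N-acetylglucosamine from heparan sulfate, rose from 7.03 ± 0.38 to 13.5 ± 1.79 FPKM (SD, n = 3; log2 fold change 0.84, limma adjusted p = 0.00931), and its call was lost without wild-type replicate 1 (adjusted p = 0.0535). HYAL3 and HYAL2, of the hyaluronidase family, rose from 3.54 ± 0.675 to 7.28 ± 1.11 FPKM (0.87, adjusted p = 0.0177) and from 1.41 ± 0.129 to 3.09 ± 0.243 FPKM (0.76, adjusted p = 0.0111). ARSB, a sulfatase of chondroitin and dermatan sulfate, rose from 4.73 ± 0.665 to 7.46 ± 0.257 FPKM (0.57, adjusted p = 0.0201). Left-out libraries ended the calls of HYAL3 (wild-type replicates 1 and 2, shENO1 replicate 1; adjusted p up to 0.0723), HYAL2 (replicate 1 of either group; up to 0.058) and ARSB (replicates 1 and 2 of either group; up to 0.0889). With no filter on FPKM the calls of HYAL3 (adjusted p = 0.0561) and ARSB (0.0546) were lost as well. The most abundant, GLB1, was at 85.7 ± 3.66 and 113 ± 9.74 FPKM and just missed the threshold (limma adjusted p = 0.0552). It passed with scaling on the FPKM sum of nuclear genes (adjusted p = 0.0135) and on their median ratio (adjusted p = 0.0465).

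The neighbours of B3GALT6 on the chromosome did not show differences of the same size, and those of HS3ST2 were too low to be tested. SDF4, a gene of a luminal calcium-binding protein, lies head to head with B3GALT6 on the minus strand (chromosome 1, 1216908 to 1232031), with 194 bases between the gene models. It was measured at 48.4, 51.6 and 59.97 FPKM in wild-type and 73.0, 61.1 and 63.2 FPKM in shENO1 libraries (log2 fold change 0.30, SE 0.12, limma adjusted p = 0.153; 0.41 and 0.0495 without both replicates 3). On the other side, C1QTNF12, 7404 bases away, was at 2.62 ± 0.239 and 1.45 ± 0.605 FPKM (adjusted p = 0.104). The nearest genes of HS3ST2, the lincRNAs AC130466.1 and AC127459.2, stayed at or below 0.232 FPKM and 4 reads in all libraries, so they could show no difference. No gene of the table overlaps B3GALT6 or HS3ST2. The genes that overlap XYLT1, XYLT2, NDST1 and NDST2 had means below 1 FPKM, and strand settings of the counting are not given in the sources used here.

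The genes whose profile over the 6 libraries was most like each of B3GALT6 and HS3ST2 were sought among 7328 genes averaging 5 FPKM or more, by the root-mean-square difference of log2(FPKM + 1) after each gene's own mean was subtracted. For B3GALT6 the nearest were MYC (0.22), HS3ST2 (0.26) and MT-CYB (0.33). For HS3ST2 they were MYC (0.11), PRTN3 (0.14) and MT-ATP6 (0.15), with B3GALT6 at rank 15. MYC, the gene of a growth-promoting transcription factor, was at 17.9, 17.3 and 23.6 FPKM in wild-type and 75.6, 73.0 and 58.8 FPKM in shENO1 libraries. All these profiles place wild-type replicate 3 nearest to the shENO1 group. They are descriptions over 6 libraries that fall into 2 groups, so a similar difference between the groups by itself brings profiles nearer. B3GALT6 and HS3ST2 were both picked for their rise, so their nearness to each other follows in part from that choice. How many genes with such a difference come close was not counted.

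**Figure D3:**
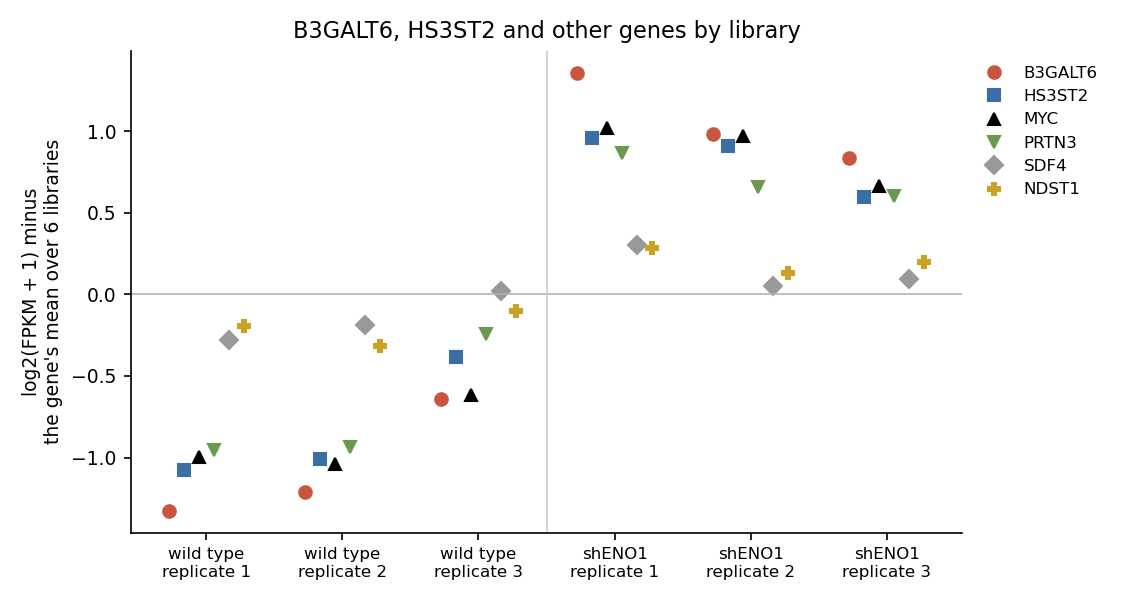
Log2(FPKM + 1) of 6 genes in each library after subtraction of the gene's own mean over the 6 libraries; each symbol is 1 library and replicates have no order. B3GALT6, HS3ST2, MYC and PRTN3 lie below 0 in the wild-type libraries and at 0.60 or more in the shENO1 libraries, and SDF4 and NDST1 stay between -0.32 and 0.30.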

How the data were processed

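The deposited table held FPKM values per gene and library, normalised by the authors with Cuffnorm, per the submitters' processing notes, which also name STAR, Cufflinks and hg38 (GRCh38), without versions. Its gene models have lengths in bases per the file headers; 58724 of 58735 genes had the same start and end in GENCODE release 29. In each library the product of FPKM and gene length came in whole steps (tolerance 0.001) for 100% of values above 0, and counting these steps gave the reads per gene. The libraries were made with a TruSeq RNA kit from total RNA, per the labels' protocols. Replicates differed by more than sampling noise: the chi-square statistic of their reads, divided by its degrees of freedom, was at least 4.65 for each pair.

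The test was limma (version 3.58.1, R version 4.3.3) on log2(FPKM + 1) of genes whose mean reached 1 FPKM (empirical Bayes with a mean-variance trend), with Benjamini-Hochberg adjustment over all 12809 genes and a threshold of 0.05. Fold changes on this scale understate those of low genes. Voom on recovered reads, other pseudocounts, filters and scalings, a replicate block and left-out libraries were alternatives; scaling on the FPKM sum of nuclear genes and the test of genes with at least 10 reads were chosen after seeing the data. The scripts were tested on simulated data. The members and lists were chosen with earlier results of these data known. Genes named are the members, ENO1, up to 4 called genes with the largest change and the 2 most abundant of each list, overlapping and neighbouring genes, and the 3 nearest profiles of B3GALT6 and HS3ST2; HSPG2, PXYLP1, SLC35A2, GUSB, the syndecans and further members of enzyme families are named outside this rule, after their values were seen. Some genes of the lists are not reported here by name. Matplotlib 3.10.9 under Python 3.11.15 drew the figures.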

Additional observations from a re-analysis of the deposited data

How the results depend on the processing

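Over all genes, 445 were higher and 381 lower with no filter on FPKM, and 1637 and 2041 without both replicates 3. The counts were 1396 and 501 with scaling on the FPKM sum of nuclear genes, and 992 and 865 on their median ratio. They were 148 to 917 and 132 to 775 with 1 library left out. Of the 6 tested genes not picked for their rise, 0 were higher with no filter, 2 by limma-voom and 2 without both replicates 3. With scaling on the FPKM sum of nuclear genes 2 were higher, and 1 with scaling on their median ratio. The count was 0 to 1 with 1 library left out. In the wider lists without the 10 enzymes, 12 genes were higher and 0 lower; 5 were higher with no filter and 3 to 12 with 1 library left out, while 1 (HSPG2) was lower by limma-voom and 3 (SLC35A2, SDC4 and GUSB) without both replicates 3. The difference in share was 1.24 points for EXT2 and -2.78 for NDST2 with 1 FPKM added to both partners, against 0.84 and -1.12. With 5 FPKM added, B3GALT6 was at 1.48 and HS3ST2 at 1.31, by construction of the scale; for the other shifts the cause was not tested. With the replicate number as a block, 0 genes were higher and 1 lower over all genes, 0 of the 6 and 0 of the wider lists were higher, while the mean differences in share (-3.64, 0.84 and -1.12 points) cannot change under a block in this balanced design. Libraries with the same number did not deviate together (correlations -0.085, -0.334 and -0.459), so the numbers were not taken to pair them. Reads limit EXT1 and NDST2, at 9 to 31 per library.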
